A study of Mus musculus with 24 samples.

Results

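Unstimulated Th1 and Th2 cells that had received no drug were compared gene by gene, with 2 arrays of Th1 cells set against 1 array of Th2 cells, 3 of the 24 arrays of the series. A gene was kept where it differed at least 2-fold from Th2, in the same direction, on both Th1 arrays, and where the cell type with more of its RNA gave a signal well above background on each of its arrays. By this rule 264 of 12772 expressed genes (2.07%) were higher in Th1 and 194 (1.52%) were higher in Th2. The balance of these counts depended on the scaling, with 181 and 241 genes when arrays were centred on their median, 166 and 272 when they were centred on spike-in probes, and 495 and 532 in the scanner software's ratio. All 3 arrays carried RNA of unstimulated in vitro differentiated mouse T helper cells given the vehicle DMSO, from female C57BL/6 mice. Both Th1 samples had DMSO alone, for 6 hr or for 24 hr. For the Th2 sample the labels conflicted, with 24 hr in one field and 6 hr in another, so its time was treated as unknown. Whichever is right, 1 of the Th1 arrays had the same time, and a gene had to pass against both. According to the methods, naive T cells were polarized for 13 days. Every array also carried RNA of naive CD4+ T cells with the surface phenotype CD62L+CD25-CD44lo, taken from spleens and lymph nodes, as a common reference in the other colour. Cells sorted or cultured in this way are a population, so fewer cells of a type and less RNA per cell cannot be told apart.

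Naive CD4+ T cells become Th1 cells under interleukin-12 and interferon-γ, with T-bet (Tbx21) as the lineage factor, and Th2 cells under interleukin-4, with Gata3. Th1 cells secrete interferon-γ against intracellular microbes, and Th2 cells secrete interleukins 4, 5 and 13 against helminths and in allergy. Interferon-γ acts through its receptor and the GAS sequence to turn on genes such as Irf1 and the families of interferon-inducible GTPases. In unstimulated effector cells most cytokine genes are quiet until the T cell receptor is engaged again, so the comparison asks which parts of the Th1 and Th2 programs stood apart before that.

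Values below are log2 ratios of T helper cells to naive cells, given in the order Th1 at 6 hr, Th1 at 24 hr and Th2, and a difference is a Th1 ratio minus the Th2 ratio, so 1 is 2-fold. The design gave 1 biological replicate per condition, so no test was possible within these 3 arrays. As a measure of technical noise alone, which leaves out the spread between cultures, the naive RNA differed between the arrays with an SD over genes of 0.127 to 0.195 log2 units, against 0.587 and 0.54 for the ratio differences of Th1 from Th2 and 0.366 for that between the Th1 arrays. The naive SD is of 1 colour over 11572 genes well above background in it, and the other SDs are of ratios over 12772 expressed genes. They are thus not like measures. Against the 6 hr array 499 genes were past 2-fold upward in Th1 and 379 upward in Th2, and against the 24 hr array 376 and 302. The Th1 arrays themselves differed at least 2-fold at 79 genes higher at 24 hr and at 112 higher at 6 hr. In the naive colour, where no difference was intended, 7 of 12166 genes passed the same rule upward in Th1 and 6 upward in Th2. Of the 264 Th1-high genes, 70 were past 4-fold and 21 past 8-fold on both Th1 arrays. Of the 194 Th2-high genes, 27 and 4 were. Against naive cells, 185 Th1-high genes were at least 2-fold above on both Th1 arrays, whereas in Th2 cells 153 of the 264 lay within 2-fold of naive cells and 53 lay at least 2-fold below. Of the Th2-high genes 100 were at least 2-fold above naive cells in Th2, and 66 were at least 2-fold below naive cells on both Th1 arrays.

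**Figure D1:**
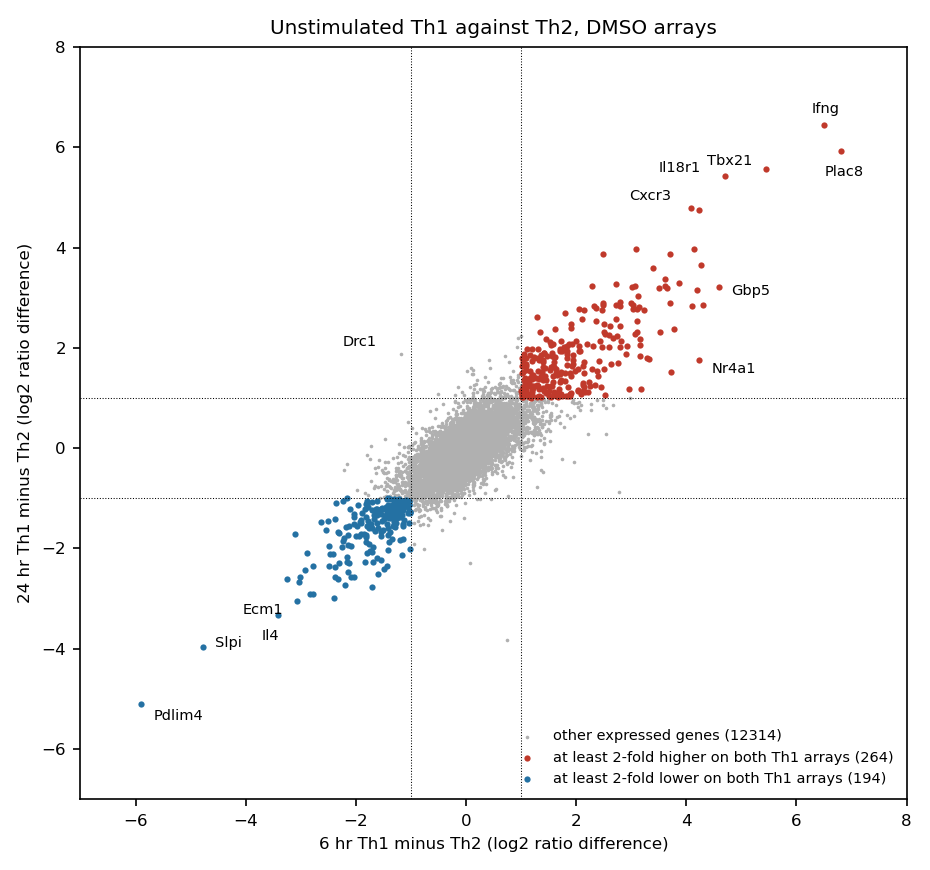
Difference of the log2 ratio to naive cells between Th1 and Th2 for each expressed gene, with the 6 hr Th1 array on the x axis and the 24 hr Th1 array on the y axis. Dotted lines mark 2-fold. Red points are the 264 genes higher in Th1 and blue points the 194 higher in Th2. Both axes use the same Th2 array, which adds to the slope of the cloud, and Drc1 is the 1 gene past 2-fold in opposite directions.

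The lineage genes of Th1 cells made up much of the top of the list. Among 28 expressed genes of a Th1 lineage list, 19 were Th1-high and 0 Th2-high, with a median difference of 2.07, against -0.04 over all expressed genes. Tbx21, which encodes T-bet, had ratios of 5.41, 5.55 and -0.02. It was thus far above naive level on both Th1 arrays. On the Th2 array both colours were dim, at 6.43 (sample) and 6.45 (naive) log2 intensity units. The lowest sample signal well above background there was 6.10, so the ratio near 0 does not establish an equal level. Ifng, which encodes interferon-γ, had ratios of 7.15, 7.08 and 0.65 without any restimulation. Both differences, 6.50 and 6.44, made it the gene with the greatest smaller difference of all. Runx3, a partner of T-bet, followed with 0.71, 1.14 and -0.62. Stat4, which carries the interleukin-12 signal, had 0.42, -0.07 and -0.58, and its differences of 1.00 and 0.51 left it outside the rule. Eomes, a T-box factor related to T-bet, had -0.66, 0.59 and -1.64, so it passed 2-fold only at 24 hr.

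Among cytokine receptor genes, 5 of 29 expressed were Th1-high and 2 Th2-high. Il18r1, one chain of the interleukin-18 receptor, had ratios of 1.96, 2.68 and -2.74. It was below naive level in Th2 cells and above it in Th1 cells, and Il18rap, the other chain, had 4.14, 3.15 and 0.98. Il12rb2, the signalling chain of the interleukin-12 receptor, had 1.60, 1.23 and -0.28. The 2 chains of the interferon-γ receptor went opposite ways. Ifngr1, the ligand-binding chain, had 2.59, 2.29 and 0.16. Ifngr2, the accessory chain, had -1.91, -2.39 and -0.56 and was Th2-high.

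Homing receptors and chemokines formed a further group. Of 23 expressed genes of the chemokine receptor list 7 were Th1-high and 4 Th2-high. Cxcr3, the receptor that guides Th1 cells to inflamed tissue, had ratios of 4.04, 4.72 and -0.06. Cxcr6, the receptor for Cxcl16, had 4.26, 4.30 and 1.47. Cxcr1, a receptor for neutrophil-attracting chemokines, had 3.53, 2.91 and -0.74. On the Th2 side, Ccr4, known as a receptor of Th2 and skin-homing cells, had 1.64, 1.82 and 3.08. Ccr2, a receptor for monocyte chemoattractants, had 2.52, 1.60 and 3.96. All 3 of these samples thus carried more Ccr4 and Ccr2 RNA than naive cells. Of 7 expressed chemokine genes 4 were Th1-high, namely Ccl3 (2.97, 3.92 and 0.69), Ccl4 (4.90, 5.78 and 1.8), Ccl5 (3.67, 4.16 and 2.09) and Cxcl10 (5.64, 4.43 and 2.11). None of these ratios was below 0, so Th2 cells held them above naive level as well.

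Of 21 expressed cytokine genes 2 were Th1-high and 1 Th2-high, with a median difference of -0.05, and of 13 genes of the TNF superfamily 4 were Th1-high and 0 Th2-high. Tnf had ratios of 0.65, 1.21 and -1.26, Lta, which encodes lymphotoxin-α, had 0.46, 1.78 and -0.83, and Fasl, the death ligand, had 1.38, 1.19 and -1.66. These 3 were above naive level in Th1 and below it in Th2. Il21, a cytokine of follicular helper and Th17 cells, had 4.85, 3.40 and 0.54. Of 21 expressed genes of cytotoxic granules and NK receptors 6 were Th1-high and 0 Th2-high. Gzma, which encodes granzyme A, had 6.22, 5.72 and 3.48. Nkg7, a granule membrane protein, had 2.59, 3.12 and -0.15, and Klrd1, which encodes the NK receptor chain CD94, had 0.88, 0.31 and -2.98. Other cell types of the culture could carry such RNA, so their markers were read beside these values. Per the methods the cultures began with isolated naive T cells, and the purity of the cultures was not measured here. Of 8 NK cell markers 1, Klra8, was expressed. The summed Cy3 intensity of 5 CD8 T cell markers was 23500 and 16500 on the Th1 arrays and 2990 on the Th2 array. Cd8a itself was not well above background in Th2 and was at least 2.84-fold higher in Th1, whereas Cd8b1 had -1.23, -0.82 and -1.26. The part of CD8 T cells in the granule genes was not tested.

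Plac8, a small cysteine-rich protein, had ratios of 7.32, 6.43 and 0.52, the highest Th1 value after Ifng by the smaller difference. The rest of the 14 highest Th1 genes were Tbx21, Il18r1, AA467197, Cxcr3, Sytl3, Tbkbp1, Cxcr1, Dapk2, Lilrb4a, Klrd1, Gbp2 and Gbp5. For Tbkbp1 and Lilrb4a the naive colour also shifted at least 2-fold on 1 or both Th1 arrays, but the sample colour alone was past 2-fold too. Several of these genes had more than 1 probe, and the brightest stood for the gene. The mean difference from Th2 ran from 1.24 to 4.05 over 3 probes of Sytl3, from 0.83 to 3.79 over 3 of Tbkbp1 and from 2.7 to 5.06 over 2 of Il18r1. The probes of Sytl3 and Tbkbp1 thus agreed on direction and not on size. At the edge of the rule, Eif5a (differences 1.00 and 1.14), Socs3 (1.18 and 1.00) and Aimp2 (1.01 and 1.08) lay just inside. Mcf2l (1.00 and 1.25 after rounding), Gzme (1.29 and 0.99) and Naa25 (1.34 and 0.99) lay just outside, although Gzme was not well above background in Th2 and its differences are bounds.

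**Figure D2:**
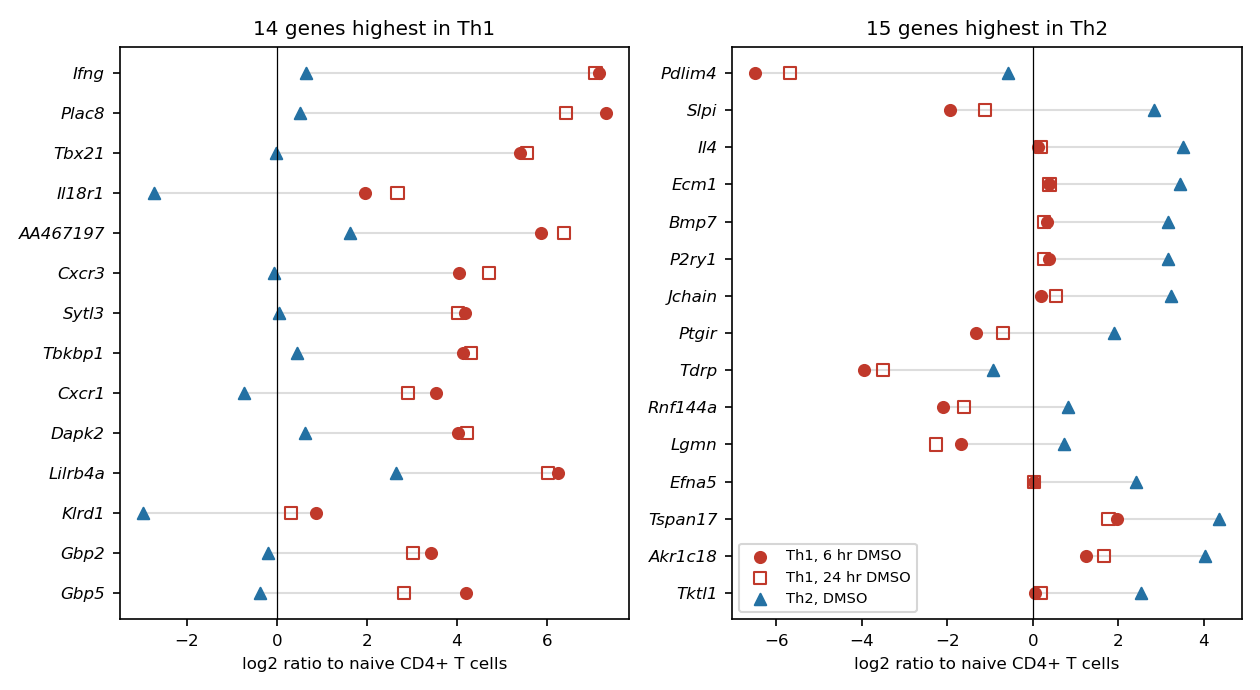
Log2 ratio to naive CD4+ T cells of the 14 genes with the greatest smaller difference upward in Th1 and the 15 upward in Th2, 1 point per array. Filled circles are Th1 at 6 hr, open squares Th1 at 24 hr and triangles Th2, and the vertical line at 0 is the naive level. The 2 Th1 points lie close together in most rows, and Il4, Ecm1, Bmp7 and Efna5 have ratios near 0 in Th1. Il4 and Efna5 were not well above background there.

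Fewer Th2 hallmark genes stood apart in unstimulated cells. Of 28 expressed genes of a Th2 lineage list, 9 were Th2-high and 2, Cish and Bhlhe40, were Th1-high, with a median difference of -0.28. Bhlhe40 turned to a mean difference of -0.3 in the scanner software's own ratio. Gata3 had ratios of -0.52, -0.17 and 1.95. It was near or below naive level in Th1 cells and well above it in Th2 cells. Il4 had 0.12, 0.20 and 3.52, was not well above background on either Th1 array, and was at least 8.6-fold higher in Th2. Of the other cytokines of the same locus, Il5 was not well above background on any of the 3 arrays, and Il13 had 0.23, 0.44 and 1.07. Il1rl1, which encodes the interleukin-33 receptor, had 2.42, 2.48 and 3.47, with differences of -1.05 and -0.99 that left it just outside. Among the other members of the list, Ecm1, an extracellular matrix protein, had 0.37, 0.39 and 3.45. Pparg, a nuclear receptor of lipid metabolism, had 0.30, 0.58 and 1.91. Rnf128, the ubiquitin ligase GRAIL, had 1.57, 0.65 and 3.06, and Penk, the proenkephalin precursor, had 1.71, 2.91 and 3.96. Plcd1, a phospholipase C, had 2.33, 2.34 and 4.64.

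Outside that list the Th2-high genes were mixed in function. Slpi, a secreted inhibitor of leukocyte proteases, had ratios of -1.93, -1.12 and 2.84. Pdlim4, an actin-associated PDZ and LIM protein, had -6.49, -5.68 and -0.58. It was strongly below naive level in Th1 cells and close to it in Th2 cells, so the largest Th2 difference was a loss in Th1 relative to naive cells. Bmp7, a ligand of the TGF-β family, had 0.33, 0.27 and 3.17. P2ry1, an ADP receptor, had 0.37, 0.26 and 3.16, but in the sample colour alone its 24 hr difference was only -0.52, and the naive colour was 8.15 log2 intensity units there against 6.02 and 5.77 on the other 2 arrays. Efna5, an ephrin, had 0.03, 0.03 and 2.41 and was at least 4.81-fold higher in Th2, since neither Th1 array was well above background. Steroid and eicosanoid genes contributed 3 Th2-high genes of 11 expressed. Cyp11a1, the first enzyme of steroid synthesis, had 0.26, 0.47 and 1.99, Ptgir, the prostacyclin receptor, had -1.34, -0.70 and 1.91, and Alox5ap, needed for leukotriene synthesis, had 0.17, 0.08 and 1.31. Akr1c18, a hydroxysteroid dehydrogenase outside that list, had 1.25, 1.66 and 4.02. Jchain, Tdrp, Rnf144a, Lgmn, Tspan17 and Tktl1 complete the 15 highest Th2 genes by measured difference. Rnf144a and Tktl1 were not well above background on either Th1 array and were at least 5.32-fold and 4.97-fold higher in Th2, so their place in the order is not fixed. Just inside the limit were Tjp3 (differences -1.41 and -1), Fxyd4 (-2.17 and -1) and Rap1gap (-1.22 and -1.01). Tmem141 (-1.47 and -1 after rounding), Sval1 (-1.34 and -0.99) and Ank (-1.56 and -0.99) were just outside, with Sval1 not well above background on either Th1 array, so that its differences are bounds.

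Jchain, which joins polymeric immunoglobulins, had ratios of 0.19, 0.54 and 3.22. Its naive colour was also higher on the Th2 array, at 7.4 log2 intensity units against 6.23 and 6.16, and its sample colour alone differed by -4.21 and -3.93. Of 7 expressed B cell markers 2 were Th2-high. Ms4a1, which encodes CD20, had 1.71, 1.43 and 4.03, and Cd79b, a chain of the B cell receptor complex, had 1.14, 0.70 and 2.97. Cd79a, the other chain, had 0.08, 0.03 and 0.79. The summed Cy3 intensity of 8 B cell markers was 1920 and 1700 in Th1 and 5380 in Th2, and Blk was not well above background on any of the 3 arrays. H2-Aa (1.11, 0.49 and 2.52), H2-Eb1 (0.77, 0.69 and 2.04) and Cd74, the invariant chain (1.83, 1.82 and 3.23), were Th2-high. They belong to a list of 22 expressed MHC and antigen processing genes, of which 4 were Th2-high and 2 Th1-high, with a median difference of 0.54 and 14 genes higher in Th1 on each array. The part of B cells in these values was not tested.

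Genes of resting and circulating T cells had median ratios of -2.11, -1.81 and -1.31, and 4 of 16 were Th2-high, while 6 of 16 were higher in Th1 on each array. S1pr1, the receptor for exit from lymph nodes, had ratios of -2.71, -2 and -0.68. Klf3, a transcriptional repressor, had -3.14, -2.43 and -1.34, Cd27, a costimulatory receptor, had -1.90, -1.88 and -0.78, and Dapl1 had -5.81, -5.12 and -4. Th2 cells thus lay closer to naive level for these 4 genes. Id3, an inhibitor of E proteins, had -1.42, -1.31 and 0.29. At shares of 2.07% and 1.52% over all expressed genes, lists of this size would hold few members, and no gene was past the rule among 12 pan T helper markers, 27 replication genes, 28 mitosis genes, 22 cholesterol synthesis genes and 16 fatty acid genes. Of 31 glycolysis and hypoxia genes 1 (3.23%) passed, Egln3, an oxygen sensor (6.59, 6.41 and 5.20). The mitosis list had median ratios of 4.21, 4.35 and 4.52 and the replication list 2.53, 2.6 and 2.23. Both cell types thus lay far above naive level for these cell cycle genes.

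**Figure D3:**
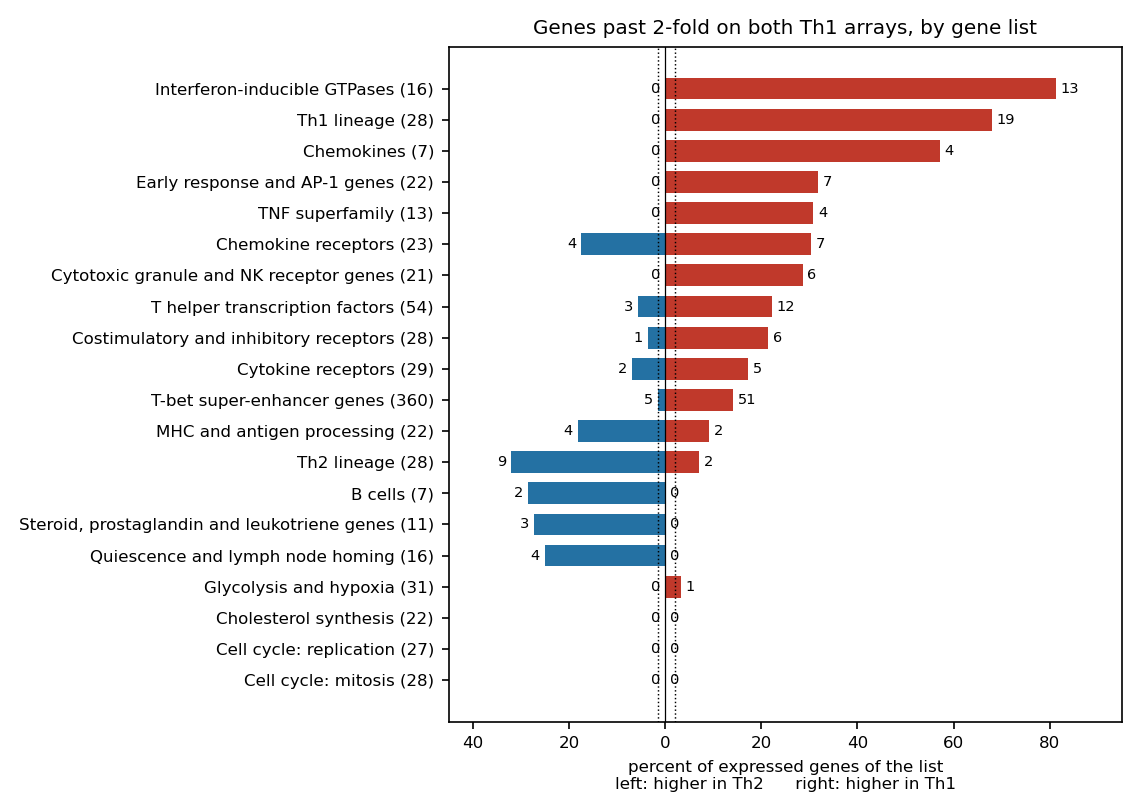
Percent of the expressed genes of each list that were at least 2-fold higher in Th2 (blue, to the left) or in Th1 (red, to the right) on both Th1 arrays, with the number of genes at the end of each bar and the number expressed beside the name. Dotted lines mark the share over all expressed genes, 1.52% and 2.07%. Interferon-inducible GTPases reach 81.2% and the Th1 lineage list 67.9%.

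The most uniform group was the interferon-inducible GTPases, proteins that attack the vacuoles of intracellular pathogens. Of 16 expressed members 13 were Th1-high and 0 Th2-high. Their differences ran from 0.44 to 4.59 with the 6 hr array (median 1.61) and from 0.52 to 3.23 with the 24 hr array (median 1.78), so all 16 were higher in Th1 on both. The median ratio to naive cells was 0.55, 0.95 and -0.84. Th1 cells thus lay above naive level and Th2 cells below it. Gbp2 had ratios of 3.42, 3.03 and -0.20, Gbp5 4.21, 2.83 and -0.38, and Gbp3 3.94, 3.49 and 0.30. Igtp had 1.30, 1.82 and -1.02, Irgm1 0.51, 1.06 and -0.57, and Tgtp2 -0.01, 0.45 and -2.12. Tgtp1 and Tgtp2 are near-identical copies, so their probes may share signal. Irf1, the transcription factor that interferon-γ induces, had 0.63, 0.62 and -1.42. Nlrc5, which drives MHC class I genes, had -0.49, -0.45 and -2.33. The wider list of interferon-stimulated genes did not share this pattern, with 4 of 33 Th1-high, 2 Th2-high and a median difference of -0.12. Ly6c1 (1.41, 1.78 and -1.08) was among the 4 and Oasl1, an antiviral gene of type I interferon (-4.18, -3.90 and -2.72), among the 2.

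The promoters of Irf1 and of 3 GTPases that hold a GAS sequence are shown, as the 250 bases before the annotated start, from RefSeq on GRCm38.p6, 5′ to 3′ on the strand of the gene. Capitals mark the GAS sequence, searched as TTCNNNGAA, which reads the same on both strands.
Irf1 (chr11:53769764-53770013, plus strand): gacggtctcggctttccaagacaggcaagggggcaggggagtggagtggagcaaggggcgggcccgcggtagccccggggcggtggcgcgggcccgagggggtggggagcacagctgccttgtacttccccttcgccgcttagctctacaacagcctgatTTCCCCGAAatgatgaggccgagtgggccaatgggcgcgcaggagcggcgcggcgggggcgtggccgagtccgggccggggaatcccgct
Igtp (chr11:58199306-58199555, plus strand): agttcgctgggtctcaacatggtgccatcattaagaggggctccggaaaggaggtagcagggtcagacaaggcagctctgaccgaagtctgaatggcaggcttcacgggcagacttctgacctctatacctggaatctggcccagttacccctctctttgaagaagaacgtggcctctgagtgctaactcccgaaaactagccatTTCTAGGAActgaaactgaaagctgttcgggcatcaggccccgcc
Tgtp2 (chr11:49064213-49064462, minus strand): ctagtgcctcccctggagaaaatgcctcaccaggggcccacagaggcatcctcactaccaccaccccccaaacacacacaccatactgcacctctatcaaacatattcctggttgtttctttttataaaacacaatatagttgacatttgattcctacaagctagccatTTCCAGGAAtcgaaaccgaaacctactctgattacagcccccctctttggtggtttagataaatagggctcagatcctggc
Gbp5 (chr3:142496684-142496933, plus strand): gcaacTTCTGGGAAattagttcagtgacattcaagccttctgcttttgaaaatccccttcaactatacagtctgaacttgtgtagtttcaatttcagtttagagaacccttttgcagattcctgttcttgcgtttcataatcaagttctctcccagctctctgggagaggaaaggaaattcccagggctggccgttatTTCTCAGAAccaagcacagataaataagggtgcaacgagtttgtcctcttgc
In Irf1 the site lay 90 to 82 bases before the start, in Igtp 45 to 37 bases and in Tgtp2 81 to 73 bases, and Gbp5 held 2 sites. Irf1 had a further annotated start, and the 250 bases before it (chr11:53770223-53770472) held 0. Promoter windows of 300 bases, from 250 before to 50 after the start, were found for 9 of the 16 GTPase genes, and 6 of their 10 windows (60%) held the sequence, in Gbp5, Gbp7, Igtp, Irgm2, Tgtp1 and Tgtp2. The windows of Gbp2 and Irgm1 did not hold it. Windows were found for 205 of the 264 Th1-high genes and 151 of the 194 Th2-high genes. The GAS sequence was in 17.1% of 280 Th1-high windows and 6.25% of 208 Th2-high windows, against 7.19% of 13016 windows of expressed genes and 8.30% of 32851 windows of all genes. The other motifs are given in the same order of 4 sets. An AP-1 sequence (TGANTCA, the same on both strands) was in 12.1%, 4.33%, 5.19% and 7.81%. A T-box sequence (GGTGTGA, either strand) was in 3.57%, 4.81%, 3.45% and 3.98%, and a GATA sequence (AGATAA, either strand) was in 6.79%, 7.21%, 7.02% and 11.2%. A RUNX sequence (TGTGGT, either strand) was in 15.7%, 13%, 13.1% and 16.8%, and an NF-κB sequence (GGGNNTTCC, either strand) was in 8.93%, 6.25%, 7.15% and 5.82%. Windows of neighbouring family members can share sequence by descent, and the letters alone show no binding.

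Of 22 expressed early response genes, which the T cell receptor induces, 7 were Th1-high and 0 Th2-high. On the 6 hr array 18 were at least 2-fold higher in Th1 and on the 24 hr array 8, with median differences of 1.46 at 6 hr and 0.87 at 24 hr. Nr4a1, an orphan nuclear receptor, had ratios of 2.26, -0.22 and -1.97. Nr4a2 had 5.05, 2.84 and 1.32, and Jun, a subunit of AP-1, had -0.56, -1.03 and -3.79. Egr1, a zinc finger factor, had 0.44, -1.54 and -2.53 and missed the rule at 24 hr with 0.99. Dusp4, a phosphatase of MAP kinases, had 3.24, 0.98 and 0.69, so the 24 hr Th1 array lay near Th2. In the unstimulated pairs with JQ1, in which Th1 and Th2 were both taken at 6 hr, 18 of 22 genes (50 nM) and 15 of 22 (500 nM) were at least 2-fold higher in Th1. Of all expressed genes 4.01% and 2.38% were. Of 28 expressed costimulatory and inhibitory receptor genes 6 were Th1-high and 1 Th2-high, and 10 were lower in Th1 on each array. Pdcd1, the receptor PD-1, had 1.65, 1.66 and 0.05, and its ligand Cd274 had 0.89, 0.79 and -0.57. Lag3, an inhibitory receptor for MHC class II, had 2.34, 2.08 and 0.77. Irf4, a factor that scales with receptor signal, had 3.55, 3.02 and 1.93, and Irf8 had 2.86, 2.92 and 1.31.

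The study's own T-bet ChIP-seq, another assay, gave a list of genes near T-bet super-enhancers, which are long clusters of bound enhancers. Of 360 expressed genes of this list 51 (14.2%) were Th1-high and 5 (1.39%) Th2-high, beside 2.07% and 1.52% of all expressed genes. Among those with the greatest smaller difference were Ifng, Il18r1, Cxcr3, Tbkbp1, Cd69, Hopx, Lilr4b, Ifitm3 and Ffar2. Cd69, an early activation marker that holds T cells in tissue, had ratios of 1.19, 0.15 and -3. Ifitm3, an antiviral membrane protein, had 3.81, 3.71 and 0.81.

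Whether the same genes separated Th1 from Th2 beyond the arrays of the rule was tested on 10 other arrays. These made 5 pairs of 1 Th1 and 1 Th2 array, namely reactivated cells with DMSO (6 hr in Th1, the time of the Th2 array again unclear) and unstimulated and reactivated cells with JQ1, a BET bromodomain inhibitor, at 50 nM or 500 nM for 6 hr. The pairs were different treatments and states with 1 biological replicate per condition, and they stood in for replicates. The SE and p values below thus measure spread over treatments and states, not between cultures. In a limma fit with the pair as a block, 1469 of 12732 genes (11.5%) were higher in Th1 and 1272 (9.99%) higher in Th2 at an adjusted p below 0.05. Of 263 Th1-high genes tested 185 (70.3%) passed in the same direction, and of 192 Th2-high genes 142 (74.0%), with 0 in the opposite direction in either set, also at an unadjusted limma p below 0.05. Plac8 differed by 6.49 ± 0.13 (SE, adjusted p = 6.61e-07), Tbx21 by 3.87 ± 0.56 (adjusted p = 0.00385) and Ifng by 4.27 ± 0.63 (adjusted p = 0.00412). On the Th2 side, Slpi differed by -5.08 ± 0.11 (adjusted p = 6.61e-07), Gata3 by -2.89 ± 0.15 (adjusted p = 5.99e-05) and Ecm1 by -2.77 ± 0.12 (adjusted p = 3.25e-05). Stat4, outside the rule, was higher in Th1 here by 1.33 ± 0.17 (adjusted p = 0.00252). Of the lists, 23 of 28 Th1 lineage genes and 19 of 31 glycolysis and hypoxia genes were higher in Th1, with 4 of the 31 higher in Th2. Of 32 Th2 lineage genes 13 were higher in Th2 and 2 higher in Th1, and 5 of 7 B cell markers were higher in Th2. Of the interferon-inducible GTPases 2 of 16 passed, and of the early response genes 6 of 23, all of them higher in Th1. Without the pair block, the Th1-high genes that passed fell to 57 and the Th2-high genes to 43. With the pair block kept and the slide added as a random block, they fell to 67 and 52. The JQ1 pairs had Th1 and Th2 on different slides, so slide and cell type cannot be told apart in them, whereas the 6 hr Th1 array and the Th2 array of the rule shared a slide. The 24 hr Th1 array of the rule was on another slide than the Th2 array.

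Pair by pair, the median gap of the members was closer to that on the arrays of the rule in unstimulated than in reactivated cells. For the Th1-high genes the median difference was 1.76 and 1.65 on the arrays of the rule, 1.76 in unstimulated cells with 50 nM JQ1 and 1.45 with 500 nM. In reactivated cells it was 0.73 with DMSO, 0.70 with 50 nM JQ1 and 0.81 with 500 nM. For the Th2-high genes it was -1.56 and -1.43, then -1.40 and -1.06 in the unstimulated JQ1 pairs, and -0.77, -0.75 and -0.54 in the reactivated pairs. In the unstimulated 50 nM JQ1 pair 93.9% of Th1-high genes were again at least 2-fold higher in Th1, beside 4.01% of all expressed genes. In the reactivated DMSO pair 40.9% were, beside 2.54%. The genes were chosen in unstimulated cells, and that choice alone favours a larger gap there.

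**Figure D4:**
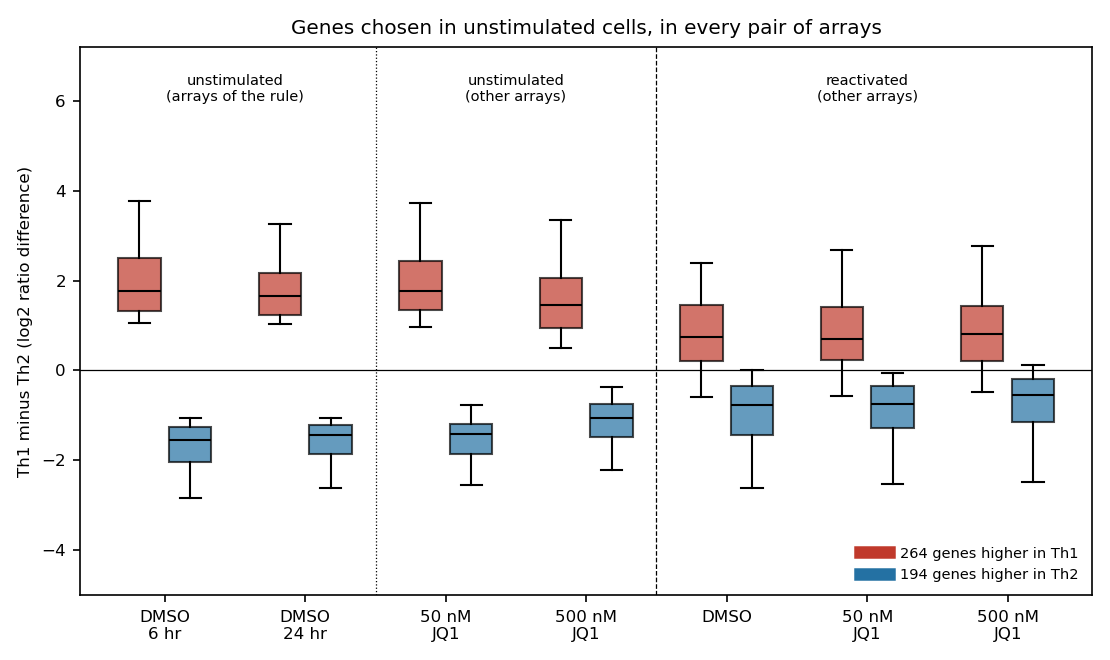
Th1 minus Th2 difference of the log2 ratio for the 264 Th1-high genes (red) and the 194 Th2-high genes (blue) in each pair of arrays. Boxes span the quartiles with the median as a line, and whiskers run from the 5th to the 95th percentile of genes. The first 2 positions are the arrays that chose the genes, and the medians of the red boxes fall from 1.76 to 0.73 between unstimulated and reactivated DMSO cells.

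The difference between the states was tested on the same 10 arrays as an interaction, Th1 minus Th2 in the 2 unstimulated JQ1 pairs against the 3 reactivated pairs. This test was added after the reactivated values had been seen, and it includes those arrays. Its pairs again stood in for replicates, so its SE and p values do not measure spread between cultures. Of 12732 genes, 726 (5.70%) had a more positive gap in unstimulated cells and 670 (5.26%) a more negative one at an adjusted p below 0.05. The members were chosen for a gap in unstimulated cells, and that choice alone favours the same direction here. Among the Th1-high genes 130 of 263 were more positive and 4 more negative, and among the Th2-high genes 71 of 192 were more negative and 9 more positive. These 130 and 71 became 58 and 15 with the scanner software's ratio, 64 and 16 without the unstimulated 50 nM JQ1 pair and 0 and 0 with 4 flavopiridol pairs added (51 and 36 at an unadjusted limma p below 0.05), and the 71 became 12 with spike-in centring. All 16 interferon-inducible GTPases were more positive, with a median gap of 1.71 in unstimulated and -0.38 in reactivated cells. Igtp had an interaction of 4.09 ± 0.24 (SE, adjusted p = 0.000104), Gbp2 of 3.88 ± 0.29 (adjusted p = 0.000394) and Irf1 of 2.91 ± 0.38 (adjusted p = 0.00352). Of 23 early response genes 18 were more positive, with medians of 1.46 and -0.04, and Nr4a1 had 3.89 ± 0.19 (adjusted p = 4.79e-05). No GTPase passed limma's adjusted threshold when the 4 flavopiridol pairs were added, although all 16 had a larger gap in unstimulated cells and 15 had an unadjusted p below 0.05, and 10 of 16 passed without the unstimulated 50 nM JQ1 pair. The 18 early response genes became 0 with the flavopiridol pairs (13 at an unadjusted p below 0.05), 11 without the unstimulated 50 nM JQ1 pair and 11 with the scanner software's ratio.

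On the DMSO arrays the median GTPase gap changed sign, to -0.52 in the reactivated pair, where 12 of 16 genes were higher in Th2. The median early response gap fell to 0.01 there. Between unstimulated and reactivated DMSO cells the median ratio of the GTPases went from 0.55 to -0.90 in Th1 at 6 hr, from 0.95 to -0.69 in Th1 at 24 hr, and from -0.84 to 0.00 in Th2. It was thus lower in reactivated Th1 cells and higher in reactivated Th2 cells. Igtp had 1.30, 1.82 and -1.02 before and -1.19, -0.96 and 0.15 after, and Irgm1 0.51, 1.06 and -0.57 before and -0.53, 0.16 and 1.73 after. For the early response genes the median rose on all 3 arrays, from 0.61, -0.12 and -0.69 to 2.54, 2.66 and 2.91. These shifts rest on 1 array each. In the reactivated DMSO pair 10 of the 264 Th1-high genes were at least 2-fold higher in Th2, beside 1.94% of all expressed genes. These 10 were Gbp4, Gbp6, Gm12250, Ifi47, Igtp, Irgm1, Irgm2, Tgtp2, Tmem140 and Usp18.

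**Figure D5:**
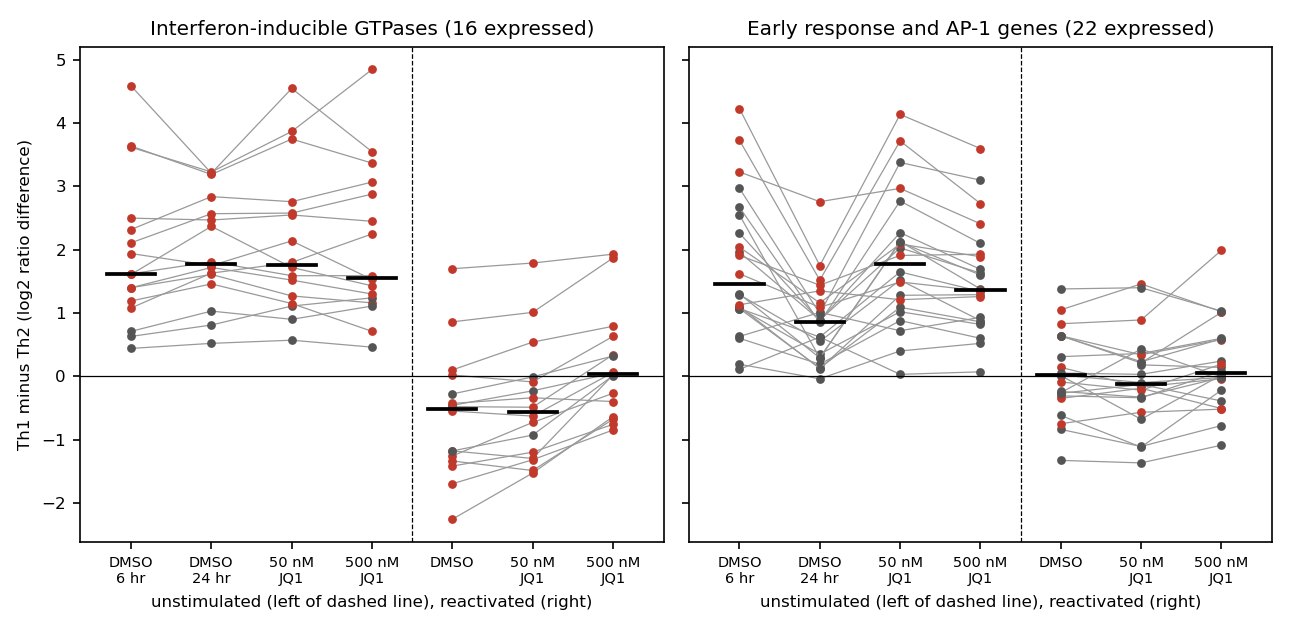
Th1 minus Th2 difference of the log2 ratio for each expressed interferon-inducible GTPase (left) and early response gene (right), 1 line per gene over 7 pairs of arrays, with the median as a bar. Red points are Th1-high genes and grey points other genes of the list. Both DMSO positions on the left of the dashed line are the arrays of the rule, and the GTPase medians go from 1.61 and 1.78 there to -0.52 in reactivated DMSO cells.

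Lineage genes were divided by the same test, although none of its calls held at the adjusted threshold with the 4 flavopiridol pairs added. Ifng narrowed, with ratios of 8.59, 8.33 and 6.2 on the reactivated DMSO arrays and an interaction of 3.42 ± 0.34 (adjusted p = 0.00117). Ccl4 had an interaction of 1.55 ± 0.25 (adjusted p = 0.00814). Tbx21 had 2.22 ± 0.78 (adjusted p = 0.104) and Cxcr3 1.53 ± 0.53 (adjusted p = 0.101), which did not pass. That does not show that their gaps persisted. On the DMSO arrays the Tbx21 difference was 5.44 and 5.57 in unstimulated cells and 1.47 in the reactivated pair. For Cxcr3 it was 4.09 and 4.78, then 0.64. In the reactivated JQ1 pairs the Tbx21 difference was 2.61 (50 nM) and 4.88 (500 nM). For Plac8 the interaction was 0.52 ± 0.18 (adjusted p = 0.0980), for Cxcr6 0.12 ± 0.22 (adjusted p = 0.772) and for Lta 0.07 ± 0.14 (adjusted p = 0.769). Nkg7 went the other way, with -1.64 ± 0.28 (adjusted p = 0.0106), that is a larger Th1 excess in reactivated cells. Il4 had ratios of 3.07, 4.5 and 8.02 on the reactivated DMSO arrays. Its Th1 minus Th2 difference was -4.95 there, and since the unstimulated Th1 arrays gave a bound only, no change of the gap is given. Il5, which recruits eosinophils, had a difference of -3.21 in the reactivated DMSO pair and was not measured above background in the unstimulated one. Slpi (0.05 ± 0.21, adjusted p = 0.910), Ecm1 (0.20 ± 0.23, adjusted p = 0.621) and Ms4a1 (0.25 ± 0.24, adjusted p = 0.542) did not pass. For S1pr1 the Th2 excess was larger in unstimulated cells, with an interaction of -1.45 ± 0.16 (adjusted p = 0.00184).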

How the data were processed

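Murine Th1 and Th2 cells were profiled on two-color Agilent arrays, with sample RNA in Cy3, naive reference RNA in Cy5 and no dye swap. The deposited scanner files gave median spot and background intensity and a log10 ratio of Agilent Feature Extraction 10.7.1.1 (grid built on mm9). The authors also deposited log2 ratios for 34710 of 55681 probes, with normalization not given in the sources used here. Of the probes, 26442 were named through RefSeq, giving 20027 genes. Here intensities were corrected with normexp (offset 50) and loess in limma 3.58.1 (R 4.3.3), and the probe brightest on average stood for a gene. A gene was expressed with Cy3 well above background in Th2 or on both Th1 arrays. Groups came from the labels. Other arrays were fitted with limma and Benjamini-Hochberg adjustment (10 arrays, 5 pairs, 4 residual degrees of freedom), after tests on simulated data. Members, gene lists and tests were chosen with earlier results of these data known. Named were the 15 members per direction with the greatest smaller difference (1 is not reported here), genes next to the limit, super-enhancer genes and genes of the lists. Alternatives covered normalization, background, channel, probes, filters, fold, arrays and blocks. The array number limits the precision.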

Additional observations from a re-analysis of the deposited data

Results flagged for a closer look

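Drc1, a subunit of the dynein regulatory complex of cilia, was the 1 expressed gene at least 2-fold from Th2 in opposite directions on the Th1 arrays. Its ratios to naive cells were -2.03 at 6 hr, 1.02 at 24 hr and -0.85 in Th2, so the differences were -1.18 and 1.88. The difference between the 2 times was not tested, since each had 1 array. On the 10 other arrays Th1 minus Th2 was -0.29 ± 0.11 (SE, limma adjusted p = 0.0974).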

How the results depend on the processing

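Of the 264 Th1-high and 194 Th2-high genes, 233 and 178 were also 2-fold apart in the sample colour alone. Centring on the spike-in probes gave 166 Th1-high genes. The scanner software's log ratio gave 495 and 532. As a share of expressed genes, a limit of 1.5-fold gave 5.07% Th1-high and 5.22% Th2-high, and one of 3-fold 0.838% and 0.462%, against 2.07% and 1.52%. The 6 hr Th1 array alone gave 499 and 379, and the 24 hr array alone 302 Th2-high genes. Th1-high genes were 57.6% of members, a share that fell to 42.9% when arrays were centred on their median, to 37.9% when they were centred on spike-ins, and to 48.2% for the software's ratio. Median centring moved the median of all genes to -0.11 and -0.18, and spike-in centring moved it to -0.19 on both arrays.

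In the fit on other arrays, 1469 genes higher in Th1 became 636 with median centring, 388 with spike-in centring, 124 without the pair block, 180 with the slide as a random block and 832 to 1194 when 1 pair was left out. The 1272 genes higher in Th2 became 435 with spike-in centring, 2132 with the flavopiridol pairs added, 87 without the pair block, 115 with the slide and 665 to 983 when 1 pair was left out. Leaving out the reactivated DMSO pair (909 and 741) or the reactivated 50 nM JQ1 pair (832 and 665) moved both counts most among the settings that left out 1 pair. Under every alternative 0 members were called in the opposite direction. Limited to the unstimulated JQ1 pairs, Gbp4 was 1.22, Ifi47 1.68, Irgm1 2.02 and Irgm2 1.59 higher in Th1, against -0.01, -0.45, -0.08 and -0.04 over all 5 pairs.

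For the interaction, the 726 more positive genes became 169 with the software's ratio, 0 with the flavopiridol pairs added (345 at an unadjusted limma p below 0.05) and 153 to 806 when 1 pair was left out. The 670 more negative genes became 192 with median centring, 32 with spike-in centring, 116 with the software's ratio, 0 with the flavopiridol pairs (467 unadjusted) and 81 to 776 when 1 pair was left out. Among the settings that left out 1 pair, the lowest counts came without the unstimulated 50 nM JQ1 pair, with 153 and 81. The cause of these shifts was not tested. Beyond the pairing of Th1 with Th2 arrays by treatment and state, no paired analysis was possible because the labels give no replicate numbers. Signals of 16 Th1-high and 14 Th2-high genes were not well above background in the other cell type, so only a bound holds for their folds. Bhlhe40 turned to -0.3 (mean difference from Th2) in the software's ratio.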

Other observations

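Shisa2 differed from Th2 by 0.74 at 6 hr and -3.83 at 24 hr. Zfp598 differed by 0.07 and -2.29. In the naive colour Shisa2 was at 6.09, 11.03 and 6.04 log2 intensity units and Zfp598 at 9.02, 11.15 and 8.94, in the order Th1 at 6 hr, Th1 at 24 hr and Th2. Neither gene passed the rule, since only 1 Th1 array was past 2-fold.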
